A study of Homo sapiens with 4 samples.

Results

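MHC class I chains and the proteins that load them with peptide were examined through 9 genes, HLA-B, HLA-C, HLA-E, HLA-F, HLA-G, B2M, TAP1, TAP2 and TAPBP in THP1 cells depleted of MLL-AF9. Every probe that carried one of these names, was no control spot and had a weight above 0 on all 4 arrays was taken. This gave 16 probes on 25 spots for 9 of 9 genes, out of 26219 probes with 20654 gene names in the comparison. All 16 probes were well above background on all 4 arrays.

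THP1 is an established monoblastic leukemia line with the MLL-AF9 fusion. The knockdown group consisted of 1 array of cells given siRNA-A (siRNA3 in the sample labels) and 1 array of cells given siRNA-B (siRNA4), both directed against MLL-AF9, and the control group of 1 array each for control siRNA-1 and for control siRNA-2. All cells were transfected on days 0, 3 and 6, were moved from 10% to 0.5% serum on day 6 and were harvested on day 8, and RNA of 5 experiments was pooled for each array. The arrays of a group thus differ in the siRNA used, come from 1 cell line, and lay side by side on the same slide (positions 1 and 2 for knockdown, 3 and 4 for control), so that knockdown and slide position cannot be told apart. In bulk RNA, a lower share of cells with a transcript and less of it in each cell cannot be told apart either.

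A class I molecule is a heavy chain paired with beta-2 microglobulin that shows short peptides at the cell surface to T cells and natural killer cells. Peptides made in the cytosol, largely by the proteasome, are pumped into the endoplasmic reticulum by the transporter TAP, trimmed there and fitted into new class I molecules in a loading complex of tapasin, calreticulin and ERp57. HLA-B and HLA-C encode classical, highly polymorphic heavy chains. HLA-E, HLA-F and HLA-G encode nonclassical ones. Monocytic cells carry class I constitutively, and the genes are inducible by interferon through NLRC5 and IRF1, and by NF-kB.

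The sequences of the probes are shown first, since several HLA-B and HLA-C probes overlap and their values are compared. A pair of HLA-B probes and 1 HLA-C probe overlapped at the 3′ end of HLA-B on chromosome 6 of build hg19, minus strand: A_33_P3424800 at chr6:31321663-31321722, A_33_P3379947 at chr6:31321653-31321712 and A_33_P3424803, which the array names HLA-C, at chr6:31321644-31321703. The first 30 bases of the 41 that they have in common, at chr6:31321674-31321703, are printed 5′ to 3′ for each probe, with the one base that differs in capitals.

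HLA-B A_33_P3424800: taagtcaattcctggaaGttgagagagcaa
HLA-B A_33_P3379947: taagtcaattcctggaaTttgagagagcaa
HLA-C A_33_P3424803: taagtcaattcctggaaGttgagagagcaa

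The HLA-B probes shared 50 bases with 1 difference, T27G, counted from the 5′ end of A_33_P3379947 and written from that probe to A_33_P3424800. The HLA-C probe shared 41 bases without a difference with A_33_P3424800, and 51 bases with A_33_P3379947 with the same difference, T27G. Both HLA-B probes list 2 RefSeq records, one of HLA-B and one of HLA-C. The array's annotation thus assigns them to both genes, and what they measured could not be divided between HLA-B and HLA-C. Among the 36 pairs of heavy chain probes no other pair overlapped by 30 bases or more with up to 2 differences.

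The remaining HLA-B probe and the HLA-F and B2M probes are shown in full because their values are set against the overlapping probes or against repeated spots. HLA-B A_33_P3399208 lies at chr6:31324490-31324549 and was designed on an allele record and lists no RefSeq record. On the minus strand it lies upstream of the overlapping probes, towards the 5′ end of the gene. The HLA-F probes lie on the plus strand, A_33_P3379967 at chr6:29692114-29692173 and A_33_P3379939 at chr6:29693280-29693338, and the latter also lists a record of HLA-H, a class I pseudogene. B2M A_23_P37441 lies at chr15:45007773-45007832. Exon and UTR annotation of hg19 was not used here.

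HLA-B A_33_P3399208: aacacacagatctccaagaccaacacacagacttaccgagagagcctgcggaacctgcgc
HLA-F A_33_P3379967: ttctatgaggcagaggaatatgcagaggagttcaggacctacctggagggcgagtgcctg
HLA-F A_33_P3379939: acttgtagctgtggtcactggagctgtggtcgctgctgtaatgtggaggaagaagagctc
B2M A_23_P37441: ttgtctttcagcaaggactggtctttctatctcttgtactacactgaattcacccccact

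Across the arrays, spots well above background made up 71.2% (siRNA-A), 70.0% (siRNA-B) and 74.3% (either control), and no spot was saturated. Of 9 monocytic markers 7 were on the array, and all 7 were well above background on 4 arrays, with a log2 summed intensity of 14.49 and 14.68 after knockdown and 14.62 and 14.63 in controls. Of these, CD14 was called higher. Marker lists of T, B, NK, erythroid and epithelial cells and fibroblasts had summed log2 intensities from 5.43 to 11.18, and 0 of their genes were called. Well above background on 4 arrays were 4 of 4 T cell, 3 of 4 B cell and 2 of 3 erythroid genes. So were 1 of 2 NK cell, 1 of 3 fibroblast and 0 of 2 epithelial genes. As 22827 of 26219 probes passed, this mark alone does not set the monocytic markers apart. No probe named for the targeted fusion was used here. Of its partner genes, the MLLT3 probes fell by 0.76 and 0.63 on the log2 scale, both called, and the log2 fold change of the 4 MLL probes was -0.41 to 0.048, with none called. The paper reported no significant change of wildtype MLL and AF9 (MLLT3) transcripts, and array probes that detect MLL-AF9. Whether the MLLT3 and MLL probes measured the wildtype or the fusion transcript was not tested here.

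Class I transcripts did not move together after knockdown. A probe was called at a two-sided unadjusted p under 0.005 in limma, which 345 of 26219 probes reached (1.32%), 192 lower (0.732%) and 153 higher (0.584%). Of the 16 probes, 1 was called lower, for HLA-B, and 0 were called higher. At an unadjusted p under 0.05 there were 3, of which 1 lower and 2 higher, and the smallest adjusted p among the 16, by Benjamini-Hochberg over all probes, was 0.141. The change was negative in 8 probes and positive in 8, with a median of 0.014 against -0.018 over all probes. The knockdown arrays were both under the 2 control arrays in 4 of the probes (21.4% of all probes) and above them in 3 (15.2% of all probes), and overlapped them in 9. Precision is limited by the number of arrays, because an exact two-sided permutation of 2 and 2 arrays gives no p below 0.333, and the smaller p of limma come from a variance estimate shared across probes.

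**Figure D1:**
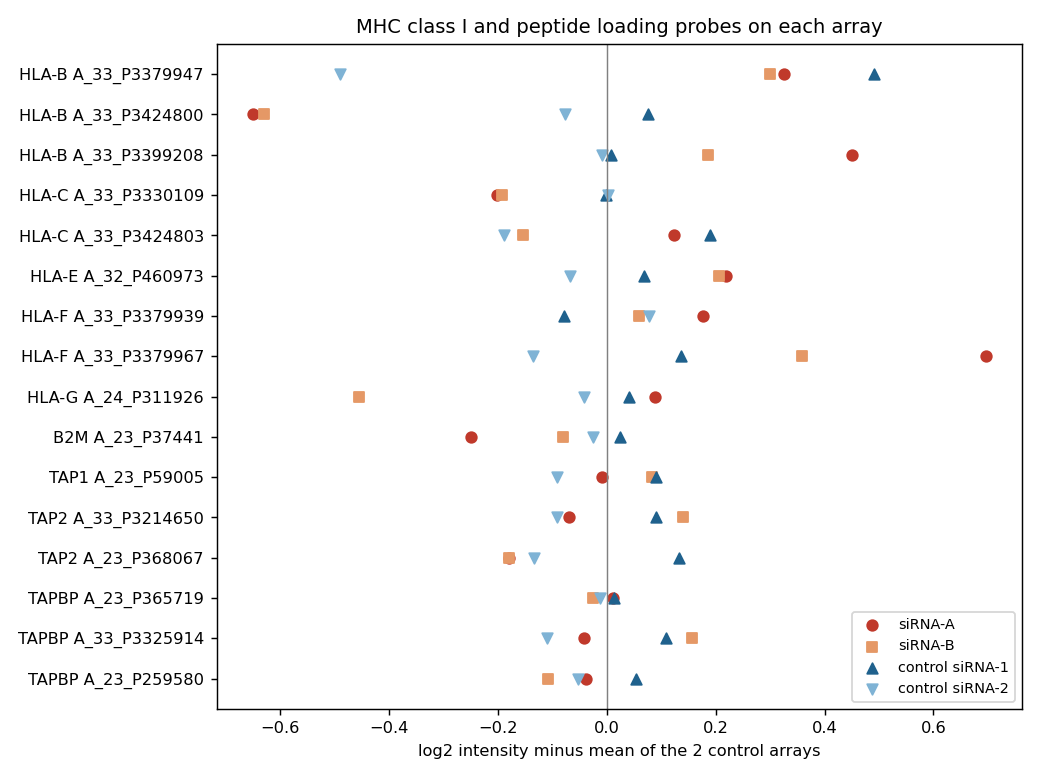
Log2 intensity of each of the 16 probes on the siRNA-A, siRNA-B and control siRNA arrays, as the difference from the mean of the control arrays of that probe (x axis, log2). HLA-B A_33_P3424800 is the row in which both knockdown arrays lie farthest below the controls, at -0.65 and -0.63, and HLA-F A_33_P3379967 the row in which they lie farthest above, at 0.70 and 0.36.

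HLA-B, a classical heavy chain, was called lower on 1 of its 3 probes, while the others had positive log2 fold changes that were not called. On A_33_P3424800 the log2 intensity was 14.42 with siRNA-A, 14.44 with siRNA-B, 15.14 with control siRNA-1 and 14.99 with control siRNA-2. The knockdown arrays lay close together and below both controls. The log2 fold change was -0.64 (standard error, SE, 0.11, 95% interval -0.90 to -0.38, n = 2 arrays against 2), and the linear intensity fell by 35.8%, with an unadjusted p of 3.79e-04 and an adjusted p of 0.141 in limma. The probe ranked 70 by p among all probes. Its direction held in 13 of 13 alternative settings, with values from -0.72 to -0.56, but it was called in 8 of them: the call was lost when any 1 of the 4 arrays was left out (-0.72 with control siRNA-2 omitted, -0.65 with siRNA-B omitted, -0.63 with siRNA-A omitted and -0.56 with control siRNA-1 omitted) and with the processed signal scaled to the 75th percentile (-0.61).

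On A_33_P3379947, the HLA-B probe shifted by 10 bases, the log2 intensity was 16.15 with siRNA-A, 16.12 with siRNA-B, 16.31 with control siRNA-1 and 15.33 with control siRNA-2. The knockdown arrays lay between the controls, which differed from each other by 0.98. The log2 fold change was 0.31 (SE 0.26, 95% interval -0.28 to 0.90, adjusted p = 0.824 in limma). The value rested on which control array was used: without control siRNA-1 it was 0.80 and called by the unadjusted p (adjusted p = 0.945 in limma), and without control siRNA-2 it was -0.18.

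On A_33_P3399208, near the 5′ end, the log2 intensity was 14.75 with siRNA-A, 14.48 with siRNA-B, 14.31 with control siRNA-1 and 14.29 with control siRNA-2. Both knockdown arrays were above both controls, which is the reverse of A_33_P3424800. The change was 0.32 on the log2 scale (SE 0.13, unadjusted p = 0.0327, adjusted p = 0.587 in limma), and it was not called. It stayed positive in 13 of 13 settings and was called in 0, with a size that depended on the knockdown array: it was 0.19 with siRNA-A omitted and 0.45 with siRNA-B omitted.

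The probes of HLA-B were also compared within each array, which removes anything that scales a whole array. The difference A_33_P3399208 minus A_33_P3424800 was 0.33 with siRNA-A and 0.046 with siRNA-B, against -0.84 with control siRNA-1 and -0.70 with control siRNA-2, a change of 0.96 between the groups, which did not overlap. For A_33_P3379947 minus A_33_P3424800 the change was 0.95, again without overlap, and it was 0.54 with control siRNA-2 omitted and 1.37 with control siRNA-1 omitted. For A_33_P3379947 minus A_33_P3399208 it was -0.0052 with overlapping groups, the mean of 0.48 with control siRNA-1 omitted and -0.49 with control siRNA-2 omitted. For A_33_P3424800 minus the HLA-C probe that shares 41 of its bases the change was -0.62, with the groups apart. These differences are given as a description and were not tested. Neither the probes that overlap A_33_P3424800 nor the probe near the 5′ end of the same gene were called lower.

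**Figure D2:**
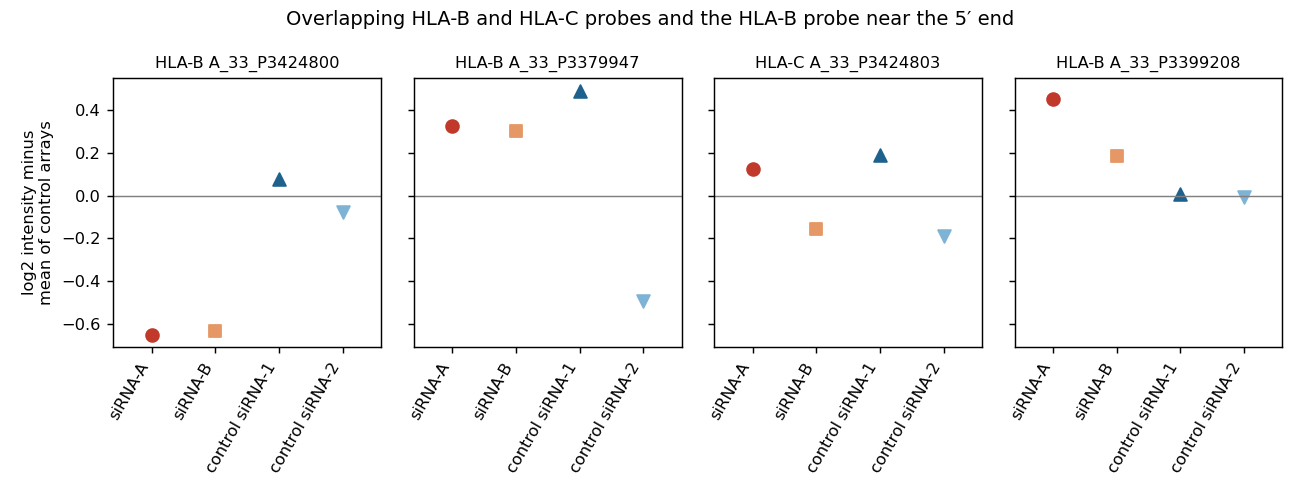
Log2 intensity on each array minus the mean of the control arrays (y axis, log2), for the overlapping probes HLA-B A_33_P3424800, HLA-B A_33_P3379947 and HLA-C A_33_P3424803 and for HLA-B A_33_P3399208 near the 5′ end. Both knockdown arrays lie below the controls in A_33_P3424800, the groups overlap in A_33_P3379947 and A_33_P3424803, and both knockdown arrays lie above the controls in A_33_P3399208.

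HLA-C, the other classical heavy chain in the set, has a probe at its own locus, A_33_P3330109 at chr6:31236617-31236676. Its log2 intensity was 17.10 with siRNA-A and 17.11 with siRNA-B against 17.30 with either control. The groups were apart by far more than the arrays differed within them, but the log2 fold change of -0.20 (SE 0.11, 95% interval -0.44 to 0.047, adjusted p = 0.717) was not called, with an SE that limma moderates over all probes. The direction held in 13 of 13 settings, from -0.20 to -0.057, and was called in 0. On A_33_P3424803, the HLA-C probe placed at HLA-B, the log2 intensity was 17.15 with siRNA-A, 16.87 with siRNA-B, 17.21 with control siRNA-1 and 16.83 with control siRNA-2. The groups overlapped, with a log2 fold change of -0.015 (SE 0.16, adjusted p = 0.993).

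Among the nonclassical chains, HLA-E and HLA-F had positive log2 fold changes and HLA-G a negative one, and none was called. HLA-E, the chain that presents signal peptides of other class I molecules to NK cell receptors, had on A_32_P460973 (chr6:30460729-30460788) a log2 intensity of 15.19 with siRNA-A, 15.18 with siRNA-B, 15.04 with control siRNA-1 and 14.91 with control siRNA-2. Both knockdown arrays lay above both controls, with a log2 fold change of 0.21 (SE 0.11, 95% interval -0.043 to 0.47, adjusted p = 0.710), positive in 13 of 13 settings and called in 0. HLA-G, known from the placental trophoblast, had on A_24_P311926 (chr6:29798694-29798753) a log2 intensity of 17.34 with siRNA-A, 16.79 with siRNA-B, 17.29 with control siRNA-1 and 17.21 with control siRNA-2. This probe was at percentile 99.5 of the control level over all probes, beside HLA-C A_33_P3330109 at 99.6. Whether it also took up signal of other class I transcripts was not tested, so its level cannot be read as that of HLA-G alone. Only the siRNA-B array was apart, and the log2 fold change of -0.18 (SE 0.17, adjusted p = 0.844) became 0.089 without siRNA-B and -0.46 without siRNA-A.

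HLA-F, a nonclassical chain that is found largely inside the cell, had probes that differed in level and in size of change. On A_33_P3379967 the log2 intensity was 9.19 with siRNA-A, 8.85 with siRNA-B, 8.63 with control siRNA-1 and 8.36 with control siRNA-2. Both knockdown arrays were above both controls. The log2 fold change of 0.53 (SE 0.15, 95% interval 0.19 to 0.87, adjusted p = 0.414 in limma) missed the call with an unadjusted p of 0.00702. It passed in 1 of 13 settings, the fit restricted to probes well above background, with an adjusted p of 0.295 in limma. On A_33_P3379939, the probe that also lists the pseudogene, the log2 intensity was 16.52 with siRNA-A, 16.41 with siRNA-B, 16.27 with control siRNA-1 and 16.42 with control siRNA-2. Here the siRNA-B array lay within the controls and the log2 fold change was 0.12 (SE 0.12, adjusted p = 0.860). Its size depended on the setting, from 0.040 with control siRNA-1 omitted to 0.41 after normexp correction with quantile normalization (adjusted p = 0.378 in limma), and it was called in 0. A_33_P3379939 was the brighter by 7.33 with siRNA-A, 7.55 with siRNA-B, 7.64 with control siRNA-1 and 8.07 with control siRNA-2 (log2). Whether both probes measure the same transcripts was not tested, and the brighter represents HLA-F in the counts by gene. Within arrays, the difference A_33_P3379939 minus A_33_P3379967 changed by -0.41 with the groups apart, by -0.62 with control siRNA-1 omitted and by -0.20 with control siRNA-2 omitted. The log2 fold changes of both HLA-F probes were positive in 13 of 13 settings.

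B2M encodes beta-2 microglobulin, the light chain that pairs with these heavy chains. Its probe was printed on 10 identical spots, which shows the technical spread directly. On the mean of the spots the log2 intensity was 17.34 with siRNA-A, 17.51 with siRNA-B, 17.62 with control siRNA-1 and 17.57 with control siRNA-2. Both knockdown arrays were below both controls, and siRNA-A was the lower. The change was -0.16 on the log2 scale (SE 0.12, 95% interval -0.43 to 0.10, adjusted p = 0.793 in limma), and it was not called.

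Within an array the 10 B2M spots had an SD of 0.18 to 0.26. The log2 fold change of single spots ran from -0.47 to 0.056 with a median of -0.15 and an SD of 0.16. It was negative in 9 of 10 spots, and in 4 of 10 both knockdown arrays were below both controls. An exact two-sided sign-flip permutation test of the 10 spots against 0 gave p = 0.00781, which measures technical repeats and not the arrays. In the fit on single spots 1 of the 10 passed both criteria (-0.47, adjusted p = 0.213 in limma), so that B2M was called lower by the rule for single spots and not on the mean of its spots. The value of the mean was -0.080 with siRNA-A omitted and -0.25 with siRNA-B omitted. It was -0.0018 after quantile normalization, -0.044 after cyclic loess, -0.029 and -0.058 with the processed signal, scaled and unscaled, and 0.081 after normexp with quantile normalization. One spot of the siRNA-A array was marked as an outlier by the scanner software and had a weight of 0.5.

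**Figure D3:**
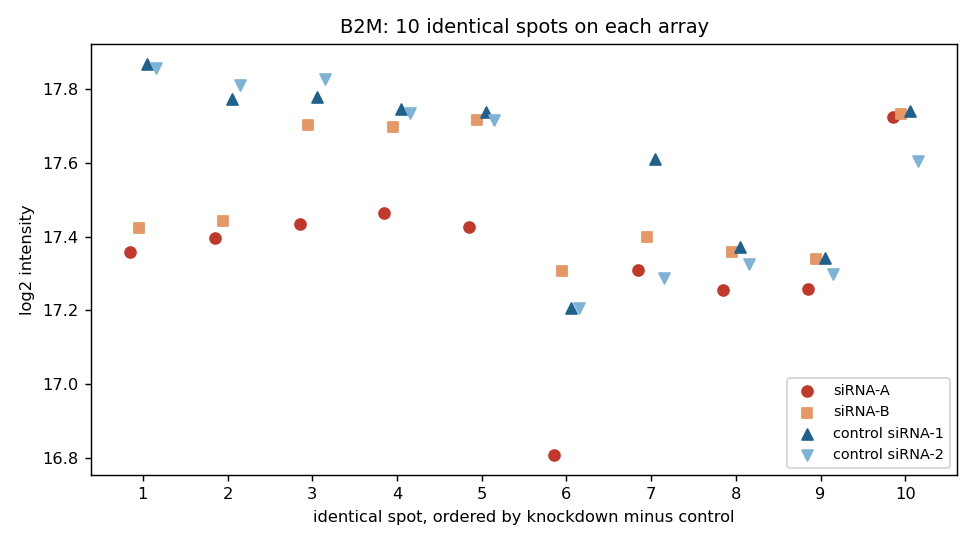
Log2 intensity (y axis) of the 10 identical B2M spots (x axis, ordered by knockdown minus control, most negative first) on each of the 4 arrays. Spots run from 16.81 to 17.87 over all arrays, and in 4 of the 10 both knockdown arrays lie below both controls.

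TAP1 and TAP2 form the peptide transporter, and their values lay close to the controls. TAP1 (A_23_P59005, chr6:32813210-32813269) had a log2 intensity of 14.35 with siRNA-A, 14.44 with siRNA-B, 14.45 with control siRNA-1 and 14.27 with control siRNA-2, a log2 fold change of 0.037 (SE 0.12, 95% interval -0.23 to 0.31, adjusted p = 0.969). TAP2 A_33_P3214650 (chr6:32793222-32793281) had 12.15 with siRNA-A, 12.36 with siRNA-B, 12.31 with control siRNA-1 and 12.13 with control siRNA-2, a log2 fold change of 0.035 (SE 0.13, 95% interval -0.25 to 0.32). In both of these probes the groups overlapped. The other TAP2 probe, A_23_P368067 (chr6:32789804-32789863), had 5.95 with either knockdown siRNA against 6.27 and 6.00 with control siRNA-1 and control siRNA-2, a log2 fold change of -0.18 (SE 0.13, adjusted p = 0.788) with the groups apart. It was -0.046 with control siRNA-1 omitted, -0.31 with control siRNA-2 omitted, and -0.42 and -0.45 with the processed signal, scaled and unscaled.

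TAPBP encodes tapasin, which bridges the transporter and the empty heavy chain. On A_23_P365719 (chr6:33267718-33267777) the log2 intensity was 14.72 with siRNA-A, 14.68 with siRNA-B, 14.72 with control siRNA-1 and 14.69 with control siRNA-2. The 4 arrays were within 0.1 of each other, and the log2 fold change was -0.0072 (95% interval -0.25 to 0.24). The other TAPBP probes had log2 fold changes of 0.057 (A_33_P3325914, 95% interval -0.24 to 0.35) and -0.073 (A_23_P259580, -0.33 to 0.18), with overlapping groups. For TAP1 and TAPBP and for the TAP2 probe at 32793222, these intervals leave room for a change of up to about 0.35 in either direction.

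**Figure D4:**
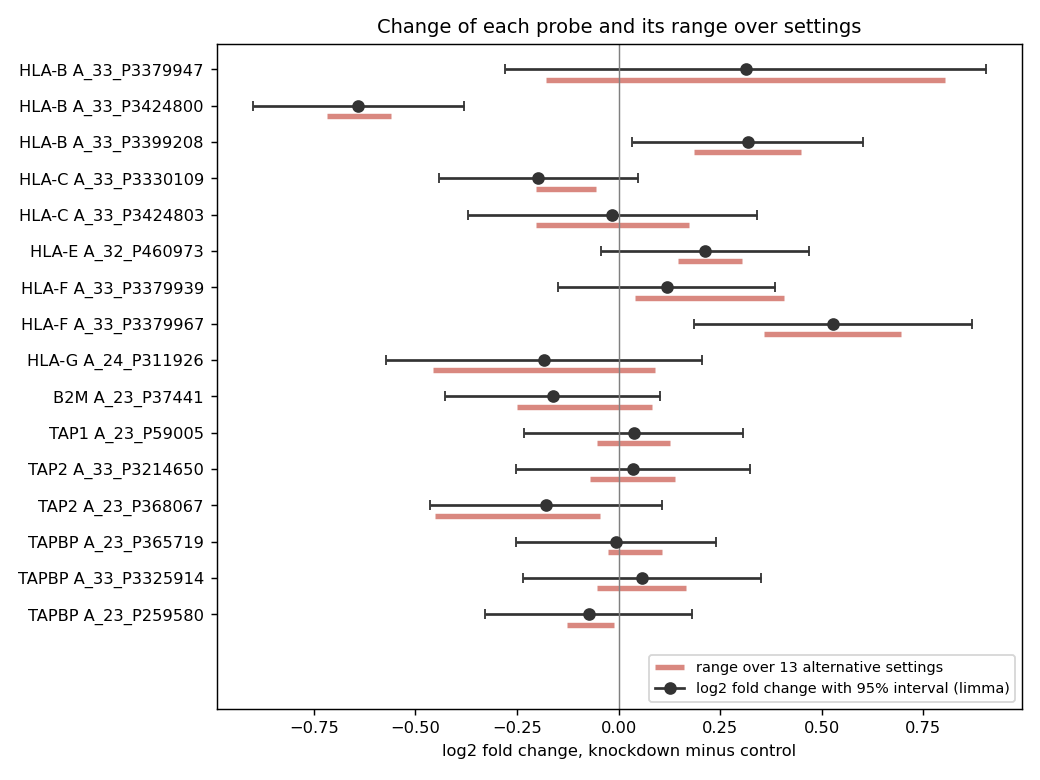
Log2 fold change (x axis, knockdown minus control) of each of the 16 probes with its 95% interval in limma (black), and the range of its value over 13 alternative settings (red bar). HLA-B A_33_P3424800 is below 0 throughout (-0.72 to -0.56), while HLA-B A_33_P3379947 runs from -0.18 to 0.80.

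Across the set, 9 pairs of probes measured the same gene, and in 5 of them the within-array difference of the probes separated the groups. The same held for 42.9% of the 7023 such pairs on the array, so nothing is read from this count. When each gene was represented by its brightest probe, 0 of 9 genes were called (279 of 20654 gene names were, 1.35%), and 0 of 9 had an unadjusted p under 0.05 in limma. Their median was 0.035. The called HLA-B probe is not the brightest of its gene.

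The genes of the wider class I pathway were read on the brightest probe of each gene. Over all gene names read in this way, 0.755% were called lower and 0.596% higher, both knockdown arrays were below both controls in 21.1% and above them in 15.2%, and the median log2 fold change was -0.019. Of the 6 regulators of class I transcription counted here, 0 were called, and 2 had both knockdown arrays below both controls. The largest log2 fold changes were those of the regulatory factor X subunits, which bind the promoters of class I and class II genes: RFX5 was at -0.40 (SE 0.11, unadjusted p = 0.00566, adjusted p = 0.393 in limma), RFXANK at -0.15 and RFXAP at -0.11 on the log2 scale. IRF1 and IRF2, which bind interferon response elements, were at 0.058 and 0.040. RFX5 had a log2 intensity of 12.33 and 12.23 after knockdown and 12.70 and 12.67 in controls, and was called in the fit restricted to probes well above background. NLRC5, the transactivator of class I genes, was at 0.070 with overlapping groups. NLRC5, IRF1 and IRF2 are named here after their values were seen.

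Of 6 trimming and loading partners, 1 was called lower and 0 higher, 5 had both knockdown arrays below both controls (21.1% of all gene names), and the median was -0.21. The called gene was CALR, the chaperone calreticulin of the loading complex, at 16.78 and 16.80 after knockdown and 17.30 and 17.31 in controls, with a log2 fold change of -0.51 (SE 0.11, adjusted p = 0.226 in limma). It was called in 6 of 13 settings and in none that left out 1 array, and was -0.22 after normexp correction with quantile normalization. The aminopeptidases ERAP1 and ERAP2, which trim peptides, and PDIA3, which encodes ERp57, each had a log2 fold change of -0.21 and were not called. CANX, the chaperone of new heavy chains, was at -0.12, and TAPBPL, a tapasin relative, at 0.12, neither of them called. These 5 uncalled genes complete the list and are named after their values were seen.

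Of 5 immunoproteasome genes 0 were called, with log2 fold changes from -0.17 (PSME1) through -0.16 (PSMB10) to 0.15 (PSMB9) and a median of -0.052. Of 7 class I-like chains with a probe in the comparison, out of 13 listed, 0 were called. The largest log2 fold changes were 0.25 for FCGRT, the neonatal Fc receptor, 0.19 for MICB, a stress-induced ligand of NK cells, and -0.16 for MR1, which presents vitamin metabolites. Of 7 leukocyte immunoglobulin-like receptors, several of which bind class I, 0 were called on the brightest probe, with LILRB2 at 0.28, LILRB1 at 0.14 and LILRB4 at 0.10. LILRB2 and LILRB1 were dim, with control means of 5.43 and 5.78 (percentiles 6.67 and 17.1 of all probes). A dimmer probe of LILRB3, A_32_P70158, was called higher (0.66, SE 0.13, adjusted p = 0.197 in limma), while the brightest was at 0.036. The called LILRB3 probe had log2 intensities of 5.98 and 6.27 after knockdown and 5.39 and 5.52 in controls. LILRB3 is named after its values were seen, and members of that family are similar in sequence.

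No gene of the type I and type II interferon response lists was called on its brightest probe. MHC class II genes form a list of their own. Of 20 type I interferon response genes 0 were called, and 18 had overlapping groups. Their median against the control mean was -0.19 with siRNA-A and 0.14 with siRNA-B. The controls differed as well: control siRNA-1 was above control siRNA-2 in 19 of the 20 genes, by a median of 0.31. IFI44L had the largest log2 fold change, 0.70 (SE 0.29, unadjusted p = 0.0402, adjusted p = 0.605), with log2 intensities of 12.18 and 12.75 after knockdown and 12.25 and 11.28 in controls, followed by IFI44 at 0.42 and XAF1 at -0.24. Of 12 type II interferon response genes 0 were called. Several of the 12 were dim in controls, down to percentile 1.03 of all probes, so the absence of a call says little for them. The largest log2 fold changes were those of the guanylate-binding proteins GBP2 (-0.46, SE 0.31) and GBP5 (-0.33) and the chemokine CXCL10 (-0.20). Against the control mean GBP2 was -1.01 with siRNA-A and 0.094 with siRNA-B, and GBP5 was -0.56 and -0.094.

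MHC class II genes, which share RFX5 and an enhanceosome with class I, are the contrast on the same arrays. Of 17 class II genes 15 were called higher (0.596% of all gene names) and 0 lower, with a median of 0.67, and in 15 both knockdown arrays were above both controls (15.2% of all gene names). They were HLA-DPB1 (1.63), HLA-DPA1 (1.60), HLA-DMB (1.49), HLA-DQA1 (0.96), HLA-DRA (0.87), CIITA (0.83), CD74 (0.77), HLA-DMA, HLA-DQB2, HLA-DQB1, HLA-DRB5, HLA-DRB1, HLA-DQA2, HLA-DRB3 and HLA-DRB4 (0.45). HLA-DQA2 was dim in controls, at 5.27 and 5.29 on the log2 scale, and well above background on 0 control arrays. Several of the class II genes are near-identical in sequence, so that single values of the DRB, DQA and DQB genes are uncertain. The count was 3 with either knockdown array omitted, 9 with control siRNA-1 omitted and 4 with control siRNA-2 omitted, and 7 and 8 with the processed signal, scaled and unscaled. The class I set and the class II list were compared only by these counts.

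**Figure D5:**
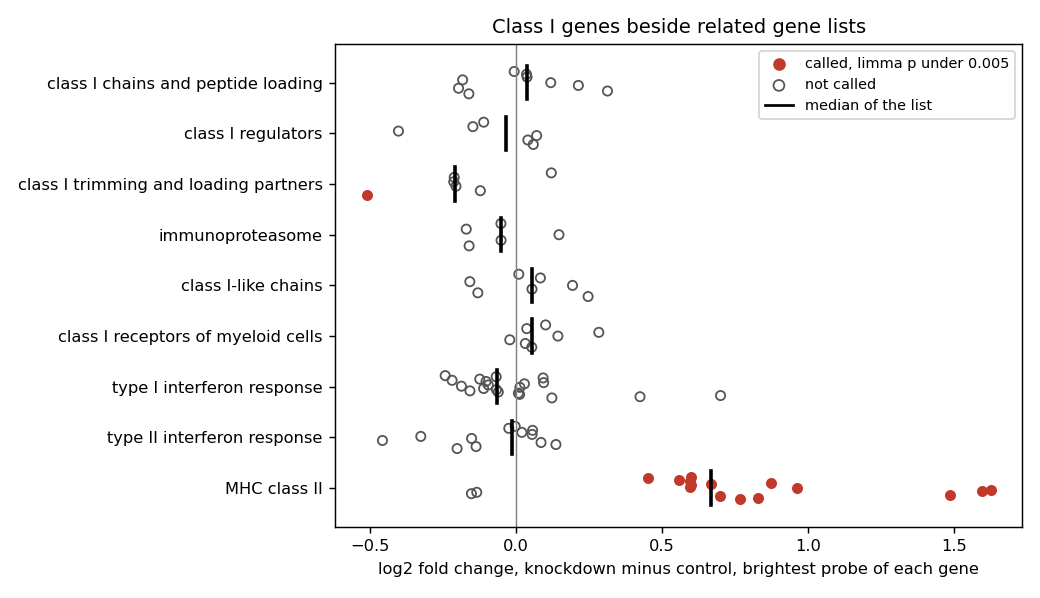
Log2 fold change (x axis, knockdown minus control) of the brightest probe of each gene, for the 9 class I and peptide loading genes and for 8 related gene lists. Filled red points were called in limma, open points were not, and black bars mark list medians. Of the 9 genes in the top row 0 were called, and of 17 MHC class II genes 15 were called higher.

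Promoters were searched for the letters of known class I control elements. RefSeq promoters of GRCh38.p14 were matched by symbol for 8 of 9 genes, all but HLA-E, in 11 windows, and the 250 bases before each start were read on both strands. The letters GAAANNGAA, from the core of the interferon-stimulated response element, were found in 5 genes, B2M, HLA-F, TAP1, TAP2 and TAPBP, of the 8. Of all 27305 gene symbols with a promoter 8.41% held them, and of 13 MHC class II genes 5 did. The letters GGGGATTC, from the NF-kB type element called enhancer A, were found in 3 genes, HLA-B, HLA-C and HLA-G, in 0.952% of all gene symbols and in 0 of the 13 MHC class II genes. No class I gene was found with both patterns. Exact letters miss elements that differ by a base, so a missing match does not show that an element is absent. Matches overlapped each other in B2M, TAP1 and TAPBP, of which the one farthest from the start is shown. The stretches are printed 5′ to 3′ on the strand of the gene, with the match in capitals, which for TAP1 and HLA-F is the reverse complement.

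B2M: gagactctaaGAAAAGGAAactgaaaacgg
TAP1: ggcggccgctTTCGATTTCgctttccccta
TAP2: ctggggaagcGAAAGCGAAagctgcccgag
TAPBP: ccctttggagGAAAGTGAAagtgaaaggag
HLA-F: tccccagagtTTCTCTTTCtctcccaaccc
HLA-B: gcgcagcgttGGGGATTCcccactcccctg
HLA-C: gcgccgcgttGGGGATTCtccactcccctg
HLA-G: gccccgcgttGGGGATTCtctcctccttct

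They lie at chr15:44711363-44711392 for B2M, chr6:32853818-32853847 for TAP1, chr6:32838778-32838807 for TAP2, chr6:33314079-33314108 for TAPBP, chr6:29723269-29723298 for HLA-F, chr6:31357337-31357366 for HLA-B, chr6:31272246-31272275 for HLA-C and chr6:29827653-29827682 for HLA-G, of which B2M, HLA-F and HLA-G are on the plus strand. The matches begin from 20 bases (TAPBP) to 177 bases (HLA-B) before the start. On the brightest probe 0 of these 8 genes were called (1.35% of all gene names), and the called probe A_33_P3424800 is a dimmer one.

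The probes most like the called HLA-B probe were found by the root mean square distance of log2 values over 4 arrays, each probe centred on its own mean, among probes well above background on every array. The nearest were GOLGA8E (distance 0.024), FBLN1 (0.028), ATP5G2 (0.053), HSCB (0.054) and SYNPO (0.058). In total 31 probes lay within 0.1. All 5 were lower in both knockdown arrays, which the choice by likeness fixes.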

How the data were processed

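THP1 RNA was hybridised to 4 single-colour Agilent arrays of 1 slide, as 2 knockdown and 2 control arrays. The authors extracted spots with Agilent Feature Extraction 10.5.1.1, per the submitters' processing notes, and deposited a linear intensity for each spot, without background correction or normalization. They also deposited a quality score for each spot, called a weight here. The intensities were checked to be the median pixel signal of the scanner tables (100% of spots). How the score was set is not given in the sources used here.

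Control spots (1377) were left out. Log2 intensities, averaged over identical spots of a probe, went into limma 3.58.1 under R 4.3.3 with the weights and no covariates. The call was an unadjusted two-sided p under 0.005, the limma threshold of the study's methods. Benjamini-Hochberg adjustment ran over all probes. The methods further require a change over identical spots at p under 0.05. This second criterion was applied only in an alternative fit on single spots, by a test of the fold changes of identical spots against 0.

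Named genes are every probe of the 9 genes, the called genes of each related list or else up to 3 with the largest change (exceptions are marked where they are named), and the 5 nearest to the called probe. The 9 genes and the lists were chosen with earlier results of these data known. One further class I regulator is not reported here, so that the counts of regulators cover the other 6 alone. Alternatives were quantile and cyclic loess normalization, the processed signal scaled to its 75th percentile or unscaled, normexp (offset 50) with quantile normalization, no weights, probes well above background alone, a variance trend with intensity, spots of weight 0.5 left out, an adjusted p under 0.05, single spots, the strongest regulated probe, and the omission of each array, in which a group left with 1 array borrows the spread of the other. Gene names are those of the array. Sequences and coordinates of probes come from the scanner tables (hg19), promoters from RefSeq (GRCh38.p14).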

Additional observations from a re-analysis of the deposited data

How the results depend on the processing

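The number of class I probes called lower was 0 with the processed signal scaled to the 75th percentile, 0 with an adjusted p under 0.05 and 2 on single spots with both criteria, HLA-B and B2M, and it was 0 whichever array was left out. The number called higher was 1 among probes well above background (HLA-F) and from 0 to 1 when 1 array was left out, where the 1 was HLA-B A_33_P3379947 without control siRNA-1. The median over the 16 probes was 0.086 after quantile normalization, 0.083 after cyclic loess normalization, 0.079 after normexp with quantile normalization, 0.028 and -0.0023 with the processed signal, scaled and unscaled, and from -0.091 to 0.083 when 1 array was left out. The number of called genes over the related lists, 16, was 7 and 8 with the processed signal, scaled and unscaled, and from 3 to 9 when 1 array was left out. That of MHC class II genes was 7 and 8 and from 3 to 9.

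Of the probes that changed sign, TAPBP A_23_P365719 was 0.085 after quantile normalization, 0.069 after cyclic loess, 0.11 and 0.076 with the processed signal, scaled and unscaled, 0.094 after normexp, and -0.026 to 0.012 when 1 array was left out. HLA-C A_33_P3424803 was 0.12, 0.097 and 0.065 after quantile, cyclic loess and normexp, and -0.20 to 0.17 when 1 array was left out. B2M was 0.081 after normexp and TAP2 A_33_P3214650 was -0.023 with the unscaled processed signal. When 1 array was left out, TAP2 A_33_P3214650 ranged from -0.069 to 0.14, TAP1 from -0.054 to 0.13, HLA-G from -0.46 to 0.089, TAPBP A_33_P3325914 from -0.052 to 0.17 and HLA-B A_33_P3379947 from -0.18 to 0.80. The cause was not tested. The other 8 probes kept their direction in all settings run. No paired analysis was possible because RNA of 5 experiments was pooled for each array, and the arrays are numbered by siRNA. The median probe had a 95% interval of 0.28 to either side on the log2 scale, a limit set by the number of arrays.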
